A study of Homo sapiens with 16 samples.

Results

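The 8 genes described here encode enzymes and a sensor of tryptophan use: IDO1, AFMID, KMO, KYNU, HAAO and QPRT of the kynurenine route, WARS1, and AHR. They were picked out by gene name from the 60664 genes of a count table of human macrophage RNA. The list was drawn up with earlier results of these data known. All 8 were among the 15301 genes with enough counts to be tested. The macrophages were made from THP-1, a line of monocytic leukaemia cells, by exposure to PMA, a phorbol ester, at 100 ng/mL over 48 hours, and every group carries that treatment. M0 received nothing further per the labels, which give no later time for it. If M0 was collected earlier, treatment and time in culture cannot be told apart in any comparison that uses M0. M0+LPS/IFNg received 100 ng/mL lipopolysaccharide (LPS) of Porphyromonas gingivalis, a bacterium of periodontitis, with 20 ng/mL interferon-gamma for 48 hours. M0+iMSC shared medium for 48 hours with iMSCs, mesenchymal stem cells grown out of induced pluripotent ones, which sat above the macrophages in a Transwell insert. M0+LPS/IFNg+iMSC had both the stimulus and the iMSCs for 48 hours. Each group had 4 libraries. All libraries come from 1 cell line, the number and source of the iMSCs per well are not stated in the material analysed, and the letters CM in the column names of both co-culture groups are not explained by the labels, so the word co-culture rests on the sample labels. Nothing in the labels says that replicates were separate cultures, so p-values measure the spread between these libraries, which may be technical.

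Tryptophan is broken down mainly along the kynurenine route. Its first step opens the indole ring and is carried out by IDO1, which interferon-gamma is known to induce in macrophages, by its relative IDO2, or by TDO2, best known from liver. AFMID (formamidase) then releases kynurenine, KMO hydroxylates it, KYNU (kynureninase) cleaves the side chain, HAAO opens the ring of the product, and QPRT turns the resulting quinolinate into a precursor of NAD. Kynurenine is a ligand of AHR, a transcription factor that senses small aromatic molecules. WARS1 loads tryptophan onto its transfer RNA in the cytosol and is itself a well-known interferon-gamma target. Loss of tryptophan by IDO1 starves neighbouring cells and microbes, and WARS1 competes for the same amino acid.

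The promoters of WARS1 and KYNU are shown because they were the windows of these genes that held a match to a sequence bound by factors of the interferon response. Windows from 250 bases before to 50 bases after a RefSeq transcript start (GRCh38.p14) were found for 7 of the 8 genes, 9 windows in all. IDO1 had no window, so its promoter was not searched. They were searched on both strands for the gamma-activated site (GAS, TTCNNNGAA), the interferon-stimulated response element (ISRE, GAAA, any 2 bases, then GAAA), the xenobiotic response element of AHR (GCGTG) and the amino acid response element (TGATGNAA). Of 35116 windows of the human table, 7.66% held a GAS match, 3.57% an ISRE match, 36.5% a xenobiotic and 3.62% an amino acid response element match. A window of WARS1 (chr14:100375298-100375597, minus strand) held a GAS match at -142 to -134 from the start, an ISRE match at -55 to -46 and a xenobiotic response element match at 24 to 28. The KYNU window (chr2:142877414-142877713, plus strand) held 2 GAS matches, at -34 to -26 and at 6 to 14. Of the other windows, the second of WARS1 and those of AHR and AFMID each held a xenobiotic response element match, and those of KMO, HAAO and QPRT held no match to any of these motifs. A match describes letters and not binding. Capitals mark the GAS and ISRE matches.
WARS1: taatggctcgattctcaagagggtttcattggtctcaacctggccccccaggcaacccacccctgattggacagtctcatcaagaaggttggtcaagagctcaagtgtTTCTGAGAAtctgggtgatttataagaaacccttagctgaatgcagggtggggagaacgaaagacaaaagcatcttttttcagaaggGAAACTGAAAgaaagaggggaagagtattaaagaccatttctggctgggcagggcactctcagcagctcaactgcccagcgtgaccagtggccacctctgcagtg
KYNU: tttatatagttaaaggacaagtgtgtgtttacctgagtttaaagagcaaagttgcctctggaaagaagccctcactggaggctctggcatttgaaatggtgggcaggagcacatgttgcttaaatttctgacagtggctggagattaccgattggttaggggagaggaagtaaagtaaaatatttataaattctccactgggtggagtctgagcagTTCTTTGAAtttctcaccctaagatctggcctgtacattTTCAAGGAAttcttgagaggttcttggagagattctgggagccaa

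Library totals ran from 17336637 to 24368753 counts. Levels are given as CPM, counts scaled to library size with TMM factors, with the SD over 4 libraries. Changes are log2 fold changes with a standard error (SE) and a Benjamini-Hochberg adjusted p from edgeR's quasi-likelihood test over all 15301 genes, called at an adjusted p under 0.05. M0+LPS/IFNg replicate 4 stood apart: 581 of 8782 well-expressed genes differed 2-fold or more from the average of its group without it, against 3 to 109 genes for each other library, so values that rest on it are given with and without it. Of 12 macrophage and monocyte markers, 11 averaged at least 1 CPM in every group, CD68 being the exception with 59 counts over all libraries, and their summed level ran from 3351 to 3550 CPM in M0 and from 4648 to 7819 in M0+LPS/IFNg, with 2310 to 2681 in resting and 9041 to 9310 in stimulated co-culture. Summed over 15 mesenchymal stromal markers, which THP-1 macrophages partly express, the level ran from 169.8 to 174 CPM in M0 and from 122 to 235 in M0+LPS/IFNg, with 755 to 977 in resting and 113 to 126 in stimulated co-culture. Of the 10 stromal markers tested, 8 were higher and 1 lower with co-culture at rest (median log2 change 1.92). Of all tested genes 69.8% were called there, 36.2% higher and 33.6% lower. With co-culture under the stimulus 3 markers were higher and 5 lower (median -0.33). There 74.7% of all genes were called, 38.4% higher and 36.3% lower, so the number of markers called is near the background. The higher markers under the stimulus were DCN (8.01), LUM (5.31) and ACTA2 (4.08), and the lower ones included PRRX1 (-4.54) and FAP (-1.91). CDH11 was at 0 counts in every group, COL1A2 at 0 in M0 and in both co-culture groups with 6 counts in M0+LPS/IFNg, and DCN at 0 counts in M0 and at 16.2 to 20.9 CPM in M0+LPS/IFNg+iMSC. The part of these markers in the co-culture differences was not tested. Scaling by library totals in place of TMM moved the median change of all genes from 0.01 to -0.25 for the stimulus, from 0.03 to 0.17 for co-culture at rest and from 0.03 to 0.50 for co-culture under the stimulus (log2), and changed the calls from 4451 higher and 4328 lower to 2520 and 6938, from 5544 and 5137 to 6541 and 4093, and from 5876 and 5555 to 9020 and 3066.

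Most of the route stood higher with LPS and interferon-gamma than in M0. Against M0, 7 of the 8 genes rose and AFMID fell, with a median log2 change of 1.11, where 57.4% of all tested genes were called, 29.1% higher and 28.3% lower, with a median of 0.01. For 6 of the 8 genes the values of both groups were fully separate, as for 52.2% of all genes. IDO1 and WARS1 rose most, by 12.04 and 2.00.

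Across co-culture, the 8 genes did not move as a block. At rest 3 rose (QPRT, HAAO, WARS1), 3 fell (KMO, KYNU, AHR) and 2 were not called, with a median of -0.35, where 69.8% of all genes were called, 36.2% higher and 33.6% lower. Groups did not overlap for 6 of the 8, as for 69% of all genes. Under the stimulus 4 rose (QPRT, HAAO, AFMID, KMO) and 4 fell (IDO1, WARS1, KYNU, AHR), with a median of 0.32, where 74.7% of all genes were called, 38.4% higher and 36.3% lower, and 7 of the 8 did not overlap, as for 65.9% of all genes. Within co-culture the stimulus raised 7 and lowered WARS1, all 8 without overlap, where 74.4% were called, 39.3% higher and 35.1% lower, and 70.2% did not overlap. The interaction, which is the co-culture effect under the stimulus minus that at rest, was called for 6, higher for 5 and lower for WARS1, against 62.1% of all genes, 31.1% in each direction. M0+LPS/IFNg+iMSC against M0 gave 5 higher, WARS1 lower and 2 not called, with 6 not overlapping, where 77.4% of all genes were called, 39.6% higher and 37.8% lower, and 76.5% did not overlap. A count of 6 called of 8 is near the background in the 3 comparisons that gave it.

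**Figure D1:**
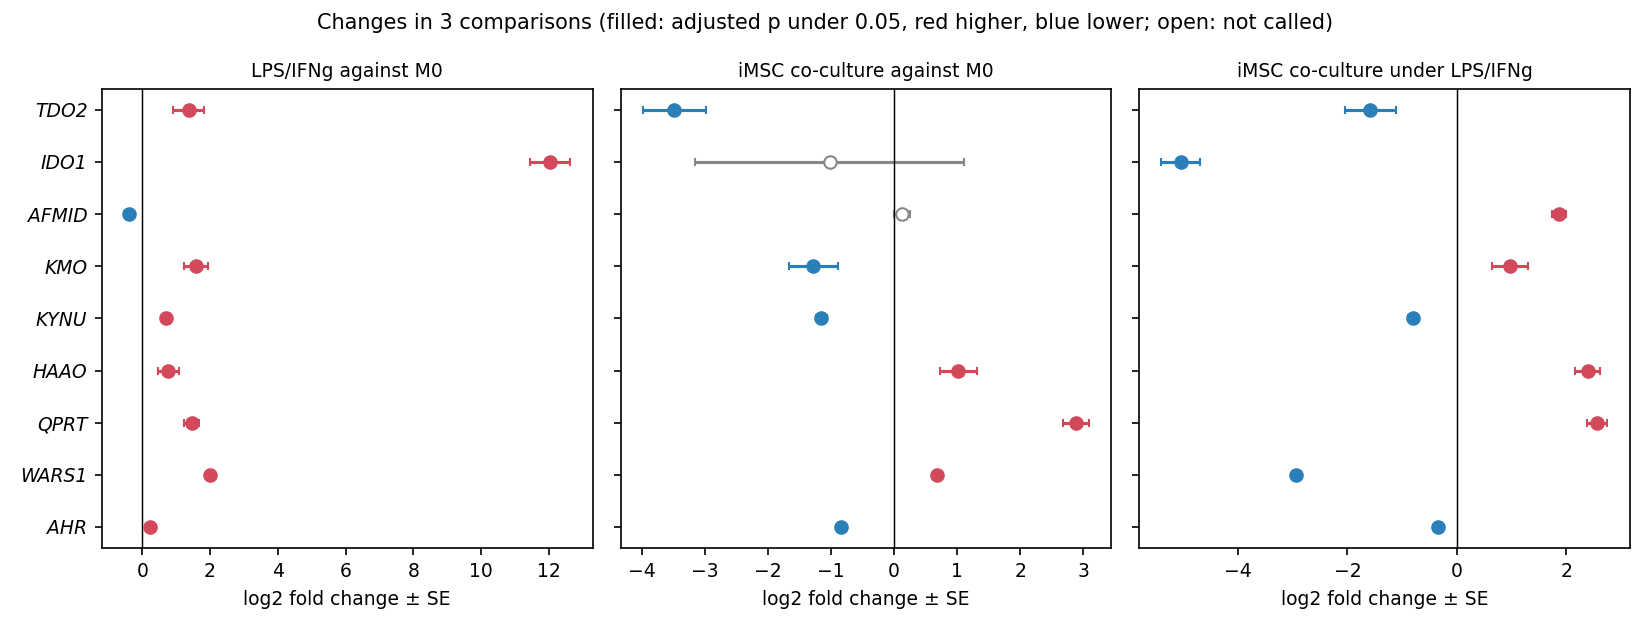
Log2 fold change with its SE (horizontal axes) of TDO2 and the 8 genes (rows) for the stimulus, for co-culture at rest and for co-culture under the stimulus. Filled points are called, red higher and blue lower, and open points are not called; in the right panel IDO1 (-5.05), WARS1 (-2.93), TDO2 (-1.58), KYNU (-0.80) and AHR (-0.34) lie left of 0 and AFMID, KMO, HAAO and QPRT right of it.

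**Figure D2:**
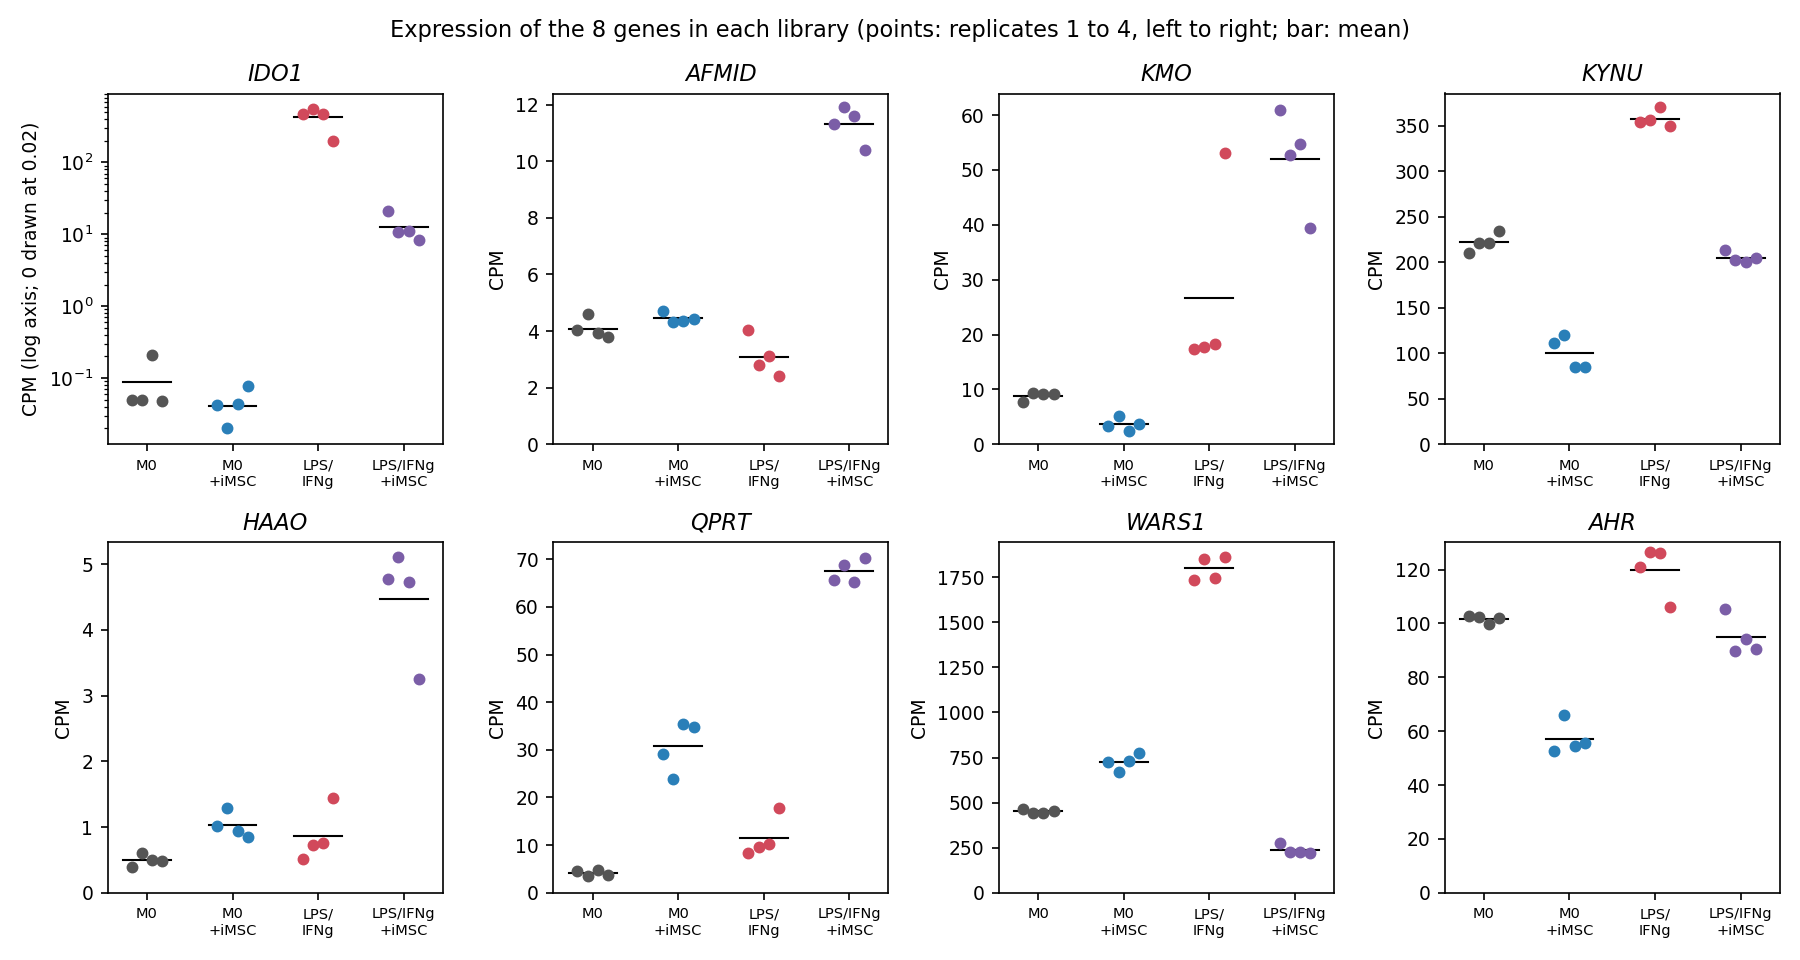
CPM after TMM scaling (vertical axes, log axis for IDO1 and linear from 0 for the others) of the 8 genes in each of the 16 libraries, grouped by condition; each point is a library and each bar a group mean. IDO1 and WARS1 are highest in M0+LPS/IFNg, QPRT, HAAO and AFMID in M0+LPS/IFNg+iMSC, and KMO replicate 4 of M0+LPS/IFNg stands at 53.1 CPM against 17.3 to 18.3 in the other libraries of its group.

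IDO1 (ENSG00000131203, chromosome 8, 39902275 to 39928790, plus strand, GRCh38.p13) was almost silent without the stimulus. The 4 M0 libraries held 1, 1, 5 and 1 counts (0.0895 ± 0.0801 CPM), and the M0+iMSC libraries held 1, 0, 1 and 2 (0.0406 ± 0.032 CPM), so the resting groups overlapped. Under LPS and interferon-gamma it stood at 476, 546, 477 and 196 CPM (424 ± 155), the lowest value being that of replicate 4. The ratio of summed counts per library size was 4531 (95% counting interval 2299 to 10496, which covers counting error only), and edgeR gave a rise of 12.04 ± 0.59 (adjusted p = 1.24e-09). The size leans on M0 replicate 3, which held 5 of the 8 M0 counts. Without it the ratio was 8675 (2968 to 42066).

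Co-culture with iMSCs lowered IDO1 in stimulated macrophages without returning it to rest. In M0+LPS/IFNg+iMSC the libraries gave 21.0, 10.7, 11.1 and 8.46 CPM (12.8 ± 5.60), all below every M0+LPS/IFNg library. The fall was 5.05 ± 0.35 on the log2 scale, 33.1-fold lower (adjusted p = 1.49e-08), and without M0+LPS/IFNg replicate 4 the log2 change was -5.29. In bulk RNA, fewer cells with a transcript and less of it per cell cannot be told apart. The stimulated co-culture still held more IDO1 than M0, at a ratio of 135 (68.1 to 312) and a log2 change of 7.00 ± 0.69 (adjusted p = 5.52e-07). Within co-culture the stimulus raised IDO1 at a ratio of 291 (113 to 1069) over M0+iMSC, with a log2 change of 8.01 ± 0.76 (adjusted p = 4.36e-07). At rest a co-culture difference was not detectable at this depth, with a ratio of 0.463 (0.102 to 1.73; log2 -1.02 ± 2.13, adjusted p = 0.687). Whether the co-culture effect differed between stimulated and resting cells therefore rests on 12 counts in the resting groups: the interaction was -4.03 ± 3.05 (adjusted p = 0.269) with edgeR and -3.99 (adjusted p = 4.42e-04) with DESeq2.

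TDO2, which carries out the same first step, behaved unlike IDO1. It was abundant in M0 at 834, 823, 852 and 881 CPM (848 ± 25.4) and low in M0+iMSC at 80.8, 107, 57.0 and 60.0 CPM (76.2 ± 23.1). The groups did not overlap, and the fall at rest was 3.48 ± 0.50 on the log2 scale (adjusted p = 3.61e-05). Under the stimulus the libraries held 1119, 1148, 1232 and 5291 CPM, so that replicate 4 alone was more than 4-fold above the others. The rise over M0 of 1.37 ± 0.46 (adjusted p = 0.0214) was 0.46 without that library and no longer called (adjusted p = 0.0682). In M0+LPS/IFNg+iMSC TDO2 stood at 974, 639.9, 742 and 583 CPM, a fall of 1.58 ± 0.46 against M0+LPS/IFNg (adjusted p = 0.00735) that was 0.67 without replicate 4 (log2 -0.67, adjusted p = 0.00908). IDO2 had 0 counts in M0, 14 in M0+LPS/IFNg, and 1 and 13 in the resting and the stimulated co-culture, and was not tested.

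The make-up of the first step can be read per length of exon. IDO1 was 0.00505% to 0.0226% of the summed IDO1, IDO2 and TDO2 CPM per kilobase in M0 and 0% to 0.118% in M0+iMSC. Under the stimulus it was 28.1%, 30.4% and 26.2% in replicates 1 to 3 and 3.29% in replicate 4, where IDO1 was low and TDO2 high. The stimulated co-culture gave 1.32% to 1.95%. TDO2 thus held the larger share of the first-step transcripts in all 16 libraries. The summed level itself was 499 ± 14.9 CPM per kilobase in M0 and 915 to 3218 in M0+LPS/IFNg, and with iMSCs 44.9 ± 13.6 at rest and 439 ± 104 under the stimulus.

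**Figure D3:**
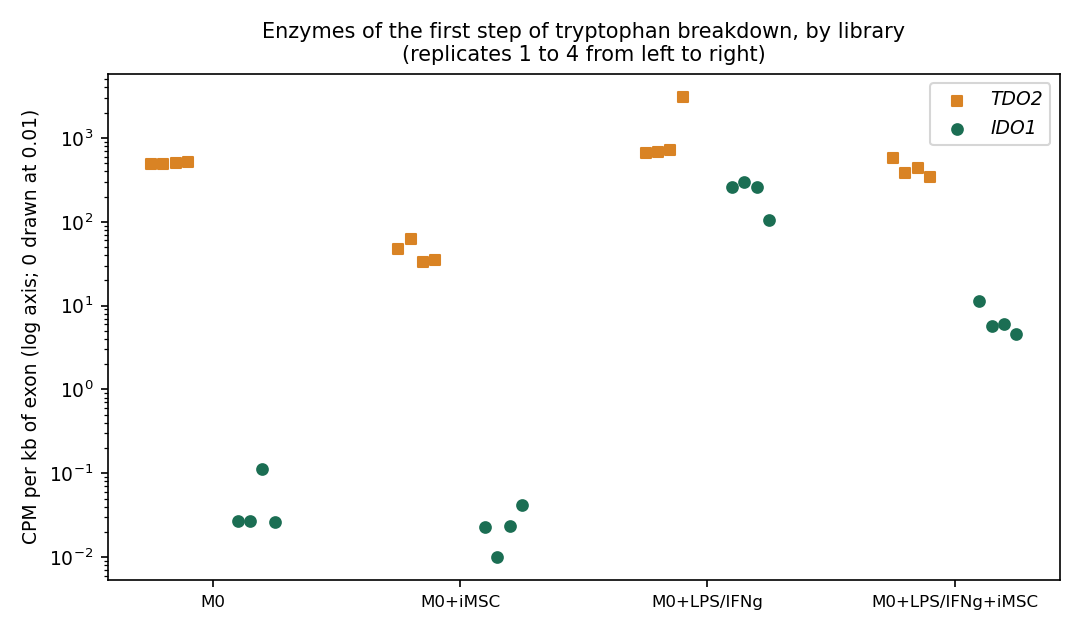
CPM per kilobase of exon (vertical log axis, a value of 0 drawn at 0.01) of TDO2 (squares) and IDO1 (circles) in the 4 libraries of each group (horizontal axis). TDO2 lies above IDO1 in every library, IDO1 is near 0 in M0 and M0+iMSC, and replicate 4 of M0+LPS/IFNg has the highest TDO2 and the lowest IDO1 of its group.

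AFMID (ENSG00000183077, chromosome 17, 78187317 to 78207701, plus strand), the formamidase of the second step, was low and flat except in the stimulated co-culture. It stood at 4.03, 4.61, 3.94 and 3.78 CPM in M0, at 4.72, 4.32, 4.35 and 4.41 in M0+iMSC and at 4.05, 2.80, 3.11 and 2.42 in M0+LPS/IFNg. The stimulated co-culture libraries held 11.3, 11.9, 11.6 and 10.4 CPM, above all others. The order from low to high was M0+LPS/IFNg, M0, M0+iMSC and M0+LPS/IFNg+iMSC, and neighbours overlapped in this order except the last pair. Co-culture under the stimulus raised AFMID by 1.87 ± 0.12 (adjusted p = 3.36e-10), while at rest the change was 0.12 ± 0.12 (adjusted p = 0.391), and the difference between these effects was called (interaction 1.75 ± 0.18, adjusted p = 1.88e-07). The fall with the stimulus, of 0.40 ± 0.13 (adjusted p = 0.0152), was not called without M0 replicate 2 (log2 -0.34, adjusted p = 0.0522) or without M0+LPS/IFNg replicate 4 (log2 -0.30, adjusted p = 0.0513).

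KMO (ENSG00000117009, chromosome 1, 241532134 to 241595642, plus strand), which hydroxylates kynurenine, rose with the stimulus and was highest on average in the stimulated co-culture. The M0 libraries held 7.62, 9.42, 9.10 and 9.10 CPM (8.81 ± 0.807), and the M0+iMSC libraries 3.37, 5.18, 2.41 and 3.68 (3.66 ± 1.15). Under the stimulus KMO stood at 17.3, 17.6, 18.3 and 53.1 CPM, and with iMSCs as well at 61.0, 52.8, 54.7 and 39.4. The stimulated groups therefore overlapped, through replicate 4 of M0+LPS/IFNg, and the resting groups did not. The stimulus raised KMO by 1.59 ± 0.35 (adjusted p = 0.00145), or by 1.01 without that replicate. Co-culture lowered it at rest by 1.28 ± 0.39 (log2 -1.28, adjusted p = 0.00932), a call lost when replicates 3 and 4 of M0+iMSC were left out together (log2 -1.05, adjusted p = 0.0942). Under the stimulus co-culture raised KMO by 0.97 ± 0.32 (adjusted p = 0.0150), or by 1.55 with replicate 4 of M0+LPS/IFNg left out (adjusted p = 1.36e-07), and the rise was not called with only the compared groups fitted (0.95, adjusted p = 0.0612). The interaction was 2.25 ± 0.51 (adjusted p = 0.00158). The KMO gene overlaps OPN3 on the opposite strand, which held 10993 counts against 7890 for KMO, and the sources used here do not say whether counting used strand, so KMO values are uncertain.

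KYNU (ENSG00000115919, chromosome 2, 142877657 to 143055833, plus strand), which cleaves kynurenine and 3-hydroxykynurenine, moved down with iMSCs in resting and stimulated cells alike. It stood at 209.8, 221, 221 and 234 CPM in M0 (222 ± 10.1) and at 111, 119.5, 85.1 and 84.5 in M0+iMSC (99.97 ± 17.9). Under the stimulus the libraries held 354, 356, 371 and 349.7 CPM (358 ± 9.26), and in the stimulated co-culture 214, 202, 199.9 and 205 (205 ± 6.06). M0+iMSC was lowest and M0+LPS/IFNg highest, and M0 and M0+LPS/IFNg+iMSC overlapped between them (log2 -0.11 ± 0.09, adjusted p = 0.247). The stimulus raised KYNU by 0.69 ± 0.09 (adjusted p = 3.18e-06). Co-culture lowered it by 1.15 ± 0.09 at rest (log2 -1.15, adjusted p = 4.01e-09) and by 0.80 ± 0.09 under the stimulus (log2 -0.80, adjusted p = 2.12e-07). The interaction was small, at 0.35 ± 0.12 (adjusted p = 0.0212), and was not called when M0+iMSC replicates 3 and 4 were left out together (0.13, adjusted p = 0.130). As KMO and KYNU both use kynurenine, their ratio describes how the transcripts of the branch were balanced across groups: there were 3.63 to 4.26 KMO counts per 100 KYNU counts in M0 and 4.89 to 15.2 in M0+LPS/IFNg, where 15.2 was replicate 4, and with iMSCs 2.83 to 4.35 at rest and 19.2 to 28.5 under the stimulus.

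HAAO (ENSG00000162882, chromosome 2, 42767089 to 42792593, minus strand), the dioxygenase that yields the precursor of quinolinate, was scarce, with 619 counts over all libraries. In M0 it stood at 0.398, 0.601, 0.503 and 0.484 CPM and in M0+iMSC at 1.01, 1.29, 0.947 and 0.851. Under the stimulus it stood at 0.514, 0.726, 0.753 and 1.44 CPM and in the stimulated co-culture at 4.78, 5.10, 4.73 and 3.26. Every stimulated co-culture library lay above all others, while M0+LPS/IFNg overlapped with both resting groups. Co-culture raised HAAO at rest by 1.02 ± 0.29 (adjusted p = 0.00496) and under the stimulus by 2.38 ± 0.23 (adjusted p = 4.96e-08), with an interaction of 1.36 ± 0.39 (adjusted p = 0.00589). The rise with the stimulus alone, 0.77 ± 0.31 (adjusted p = 0.0416), lost its call without M0 replicate 1, 3 or 4 (adjusted p = 0.0727 to 0.0981), and leaving out replicate 4 of M0+LPS/IFNg gave 0.43 (adjusted p = 0.247).

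QPRT (ENSG00000103485, chromosome 16, 29663279 to 29698699, plus strand), the last enzyme before the NAD precursor, rose with each treatment and most where both were given. It stood at 4.58, 3.61, 4.70 and 3.78 CPM in M0 (4.16 ± 0.554) and at 8.28, 9.70, 10.2 and 17.7 in M0+LPS/IFNg. With iMSCs it stood at 29.1, 24, 35.4 and 34.7 CPM at rest (30.8 ± 5.35) and at 65.7, 68.8, 65.2 and 70.3 under the stimulus (67.5 ± 2.47). The 4 groups were in that order with no overlap between neighbours. Co-culture raised QPRT by 2.88 ± 0.20 at rest (adjusted p = 6.11e-09) and by 2.56 ± 0.19 under the stimulus (adjusted p = 6.02e-09), and a difference between these effects was not called (interaction -0.32 ± 0.27, adjusted p = 0.316). The stimulus raised it by 1.45 ± 0.21 (adjusted p = 2.51e-05), and M0+LPS/IFNg+iMSC exceeded M0 by 4.01 ± 0.21 (adjusted p = 7.97e-11). Without M0+LPS/IFNg replicate 4 the rise with the stimulus was 1.17 and that with co-culture under it 2.84, both still called. SPN overlaps QPRT on the same strand and held 59680 counts, and the sources used here do not say how reads in shared sequence were assigned.

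WARS1 (ENSG00000140105, chromosome 14, 100333790 to 100376805, minus strand), whose promoter with a GAS and an ISRE match is printed above, responded to iMSCs in opposite directions at rest and under the stimulus. The M0 libraries held 467, 442, 442 and 452 CPM (451 ± 11.5), and M0+iMSC 723, 669, 731 and 775 (724 ± 43.7). With LPS and interferon-gamma the level was 1734, 1851, 1747 and 1863 CPM (1799 ± 67.8), and in the stimulated co-culture 275, 224, 224 and 221 (236 ± 25.9). From low to high the order was M0+LPS/IFNg+iMSC, M0, M0+iMSC and M0+LPS/IFNg, and no groups overlapped. WARS1 rose 3.99-fold with the stimulus (log2 2.00 ± 0.07, adjusted p = 2.74e-13) and 1.61-fold with co-culture at rest (log2 0.68 ± 0.07, adjusted p = 8.27e-08). Under the stimulus co-culture lowered it 7.62-fold (log2 -2.93 ± 0.07, adjusted p = 2.63e-15), to below M0 (log2 -0.93 ± 0.07, adjusted p = 9.07e-10). The interaction was -3.61 ± 0.10 (adjusted p = 3.04e-14), and within co-culture the stimulus lowered WARS1 by 1.62 ± 0.07 (log2 -1.62, adjusted p = 9.84e-13).

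With the stimulus alone and with co-culture under it, the other transfer RNA synthetases did not move as WARS1 did. For co-culture at rest, the stimulus within co-culture and M0+LPS/IFNg+iMSC against M0, WARS1 (log2 0.68, -1.62 and -0.93) lay within their range. Of the 19 other cytosolic synthetase genes tested, 0 rose and 16 fell with the stimulus, with a median log2 change of -0.78. The range was from -1.83 to 0.12, and without M0+LPS/IFNg replicate 4, 1 rose and 16 fell. Of all tested genes 57.4% were called with the stimulus, 29.1% higher and 28.3% lower. IARS1, for isoleucine, fell by 1.83 ± 0.07 (log2 -1.83, adjusted p = 9.22e-13) and LARS1, for leucine, by 1.63 ± 0.07 (log2 -1.63, adjusted p = 3.26e-12), and EPRS1 (log2 -1.34), MARS1 (log2 -0.82) and NARS1 (log2 -0.78) fell too. With co-culture at rest 8 rose and 8 fell (range -0.75 to 1.44), where 69.8% of all genes were called. Within co-culture the stimulus raised 3 and lowered 12 (range -2.32 to 0.58), against 39.3% and 35.1% of all genes. In M0+LPS/IFNg+iMSC against M0, 1 was higher and 16 lower (range -1.98 to 0.68), against 39.6% and 37.8%. With co-culture under the stimulus 8 rose and 6 fell, with a range from -0.76 to 0.96. There 74.7% of all genes were called, so the number called is near the background. Examples are LARS1 (0.96 ± 0.07), QARS1 (0.60 ± 0.04) and NARS1 (0.54 ± 0.05), which rose, and SARS1 (-0.76 ± 0.06) and CARS1 (-0.74 ± 0.08), which fell. With library totals 15 rose and 2 fell in that comparison, while WARS1 was at -2.46. WARS1 counts, as a percentage of the summed counts of those 19 genes, were 12.1 ± 0.355 in M0, 15.9 ± 0.552 in M0+iMSC, 85.9 ± 4.58 in M0+LPS/IFNg and 10.8 ± 1.20 in M0+LPS/IFNg+iMSC. WARS2, the mitochondrial tryptophan synthetase, averaged 14.3, 6.97, 12.2 and 8.11 CPM in the same order: the change with the stimulus was -0.23 ± 0.14 (adjusted p = 0.171), and it fell with co-culture at rest (log2 -1.04 ± 0.14, adjusted p = 4.24e-06) and under the stimulus (log2 -0.59 ± 0.14, adjusted p = 0.00109, and -0.12 with library totals, not called).

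**Figure D4:**
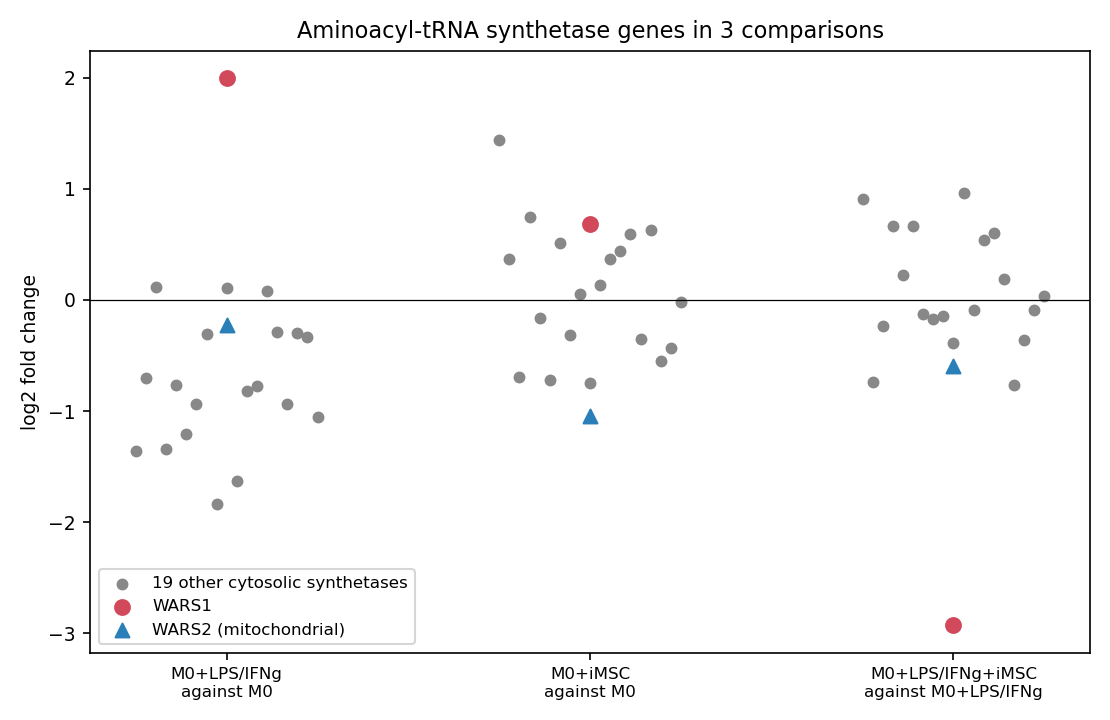
Log2 fold change (vertical axis) of 19 cytosolic synthetase genes (grey), WARS1 (red) and WARS2 (blue triangle) in 3 comparisons (horizontal axis), of which the left and middle ones share the M0 libraries and the left and right ones the M0+LPS/IFNg libraries. WARS1 is above all 19 at 2.00 with the stimulus and below all 19 at -2.93 with co-culture under the stimulus.

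AHR (ENSG00000106546, chromosome 7, 16916359 to 17346152, plus strand) is the transcription factor that senses kynurenine. It stood at 103, 103, 99.6 and 102 CPM in M0 and at 52.7, 66.0, 54.6 and 55.4 in M0+iMSC, with no overlap. In M0+LPS/IFNg it stood at 121, 127, 126 and 106 CPM and in M0+LPS/IFNg+iMSC at 105, 89.9, 94.2 and 90.4. The stimulated co-culture overlapped with M0 (log2 -0.10 ± 0.07, adjusted p = 0.217). AHR fell with co-culture at rest by 0.83 ± 0.07 (log2 -0.83, adjusted p = 2.21e-08). The rise with the stimulus (0.24 ± 0.07, adjusted p = 0.00983) and the fall with co-culture under it (log2 -0.34 ± 0.07, adjusted p = 4.34e-04) depend on scaling: with library totals they were -0.02 and 0.13, neither called. The interaction was 0.50 ± 0.10 (adjusted p = 4.77e-04).

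Of 10 tested AHR partners and targets, 7 rose and 2 fell with the stimulus, and 2 rose and 6 fell with co-culture under it, with medians of 0.56 and -0.37. The shares of all genes called in these comparisons were 57.4% (29.1% higher, 28.3% lower) and 74.7% (38.4% higher, 36.3% lower), so 8 called of 10 under co-culture is near the background, and with library totals 5 of the 10 rose there and 4 fell. TIPARP, a target that feeds back on AHR, rose from 59.9 ± 0.674 to 480.0 ± 18 CPM (log2 3.00 ± 0.06, adjusted p = 3.27e-16) and stood at 96.8 ± 8.72 in the stimulated co-culture (log2 -2.31 ± 0.06, adjusted p = 2.84e-15). CYP1B1, a hydroxylase and classical target, rose by 1.32 ± 0.05, the AHR repressor gene AHRR by 1.66 ± 0.16, and the partner gene ARNT by 0.51 ± 0.04. The chaperone gene HSP90AB1 fell by 0.96 ± 0.07 (log2 -0.96). Under the stimulus co-culture lowered ARNT2 from 9.75 ± 2.65 to 0.0866 ± 0.0509 CPM (log2 -6.74 ± 0.36) and the antioxidant regulator NFE2L2 (log2 -1.07 ± 0.07), and raised the quinone reductase NQO1 (1.11 ± 0.12). AHR targets also respond to other factors, so these values do not measure AHR activity.

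The remaining enzymes that draw on kynurenine or tryptophan were few. KYAT3, a kynurenine aminotransferase, averaged 25.1 CPM in M0 and 41.5 in M0+LPS/IFNg, with 34.4 and 30.5 in resting and stimulated co-culture: it rose with the stimulus (0.72 ± 0.08, adjusted p = 6.48e-07) and with co-culture at rest (0.45 ± 0.08), and was lower with co-culture under the stimulus (log2 -0.44 ± 0.08, adjusted p = 6.71e-05, but 0.03 with library totals). GOT2, the mitochondrial aspartate aminotransferase that also acts on kynurenine, averaged 23.0 CPM in M0 and 10.7 in M0+LPS/IFNg, with 38.7 and 30.6 in resting and stimulated co-culture, and changed by -1.10 ± 0.06 with the stimulus and by 1.51 ± 0.06 with co-culture under it (adjusted p = 3.91e-11 and 1.98e-13). IL4I1, a secreted oxidase of aromatic amino acids, held 27.1, 26.8, 25.6 and 207 CPM in M0+LPS/IFNg against 23.3 ± 0.835 in M0, so its rise of 1.62 ± 0.59 (adjusted p = 0.0327) rested on replicate 4, without which it was 0.19 (adjusted p = 0.0533). The stimulated co-culture held 79.7 to 97.1 CPM of IL4I1, a change of 0.31 ± 0.57 against M0+LPS/IFNg (adjusted p = 0.629) and of 1.74 without replicate 4 (adjusted p = 4.14e-15). KYAT1, AADAT and ACMSD held 9, 37 and 1 counts over all libraries and were not tested.

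NAD is the end product of the route. The counts of this list and of the transporters, inducers and shortage genes that follow stand beside these shares of all genes. With the stimulus 57.4% were called (29.1% higher, 28.3% lower), and with co-culture at rest 69.8% (36.2% higher, 33.6% lower). With co-culture under the stimulus 74.7% were called (38.4% higher, 36.3% lower). Nothing particular to a list is read from the counts. Of 13 tested genes that make or use NAD, 10 rose and 3 fell with co-culture under the stimulus (median 0.81, against 0.03 for all genes), 5 rose and 5 fell with co-culture at rest, and 7 rose and 3 fell with the stimulus. NAMPT, which recycles nicotinamide, averaged 1045 CPM in M0 and 2207 in M0+LPS/IFNg, with 326 and 329 in resting and stimulated co-culture, a fall of 2.75 ± 0.13 under the stimulus (log2 -2.75, adjusted p = 6.53e-12). PARP1, which consumes NAD, rose there by 2.31 ± 0.12 (adjusted p = 3.08e-11), as did BST1, another consumer (2.03 ± 0.14), and NMNAT1, a synthesis enzyme (1.25 ± 0.10), while the deacetylase SIRT1 fell (log2 -0.87 ± 0.08). With the stimulus alone NAPRT (0.93 ± 0.09), NMRK1 (0.89 ± 0.10) and NAMPT (1.08 ± 0.12) rose, and NADK2 (log2 -1.59 ± 0.15) and PARP1 (log2 -0.97 ± 0.11) fell.

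Of 6 tested transporters of tryptophan or kynurenine, 2 rose and 2 fell with the stimulus, 0 rose and 4 fell with co-culture at rest, and 2 rose and 3 fell with co-culture under the stimulus. SLC7A5, the light chain of the large neutral amino acid carrier, fell from 209 ± 10.3 to 46.2 ± 5.28 CPM with the stimulus (log2 -2.18 ± 0.08, adjusted p = 2.74e-13) and stood at 54.5 ± 2.40 in the stimulated co-culture (0.24 ± 0.07, adjusted p = 0.00760). Its heavy chain SLC3A2 changed by -0.30 ± 0.06 and by -0.18 ± 0.06 in these comparisons, the second being 0.29 with library totals. SLC7A11, the cystine carrier, rose by 1.30 ± 0.12 and then fell by 2.82 ± 0.13 (log2 -2.82, adjusted p = 9.56e-12). SLC36A4 rose with the stimulus (0.22 ± 0.08, but -0.04 with library totals) and fell with co-culture under it (log2 -0.67 ± 0.08), and the aromatic amino acid carrier SLC16A10 rose under the stimulus with co-culture (1.94 ± 0.30). SLC7A8 had a log2 change of 1.48 ± 0.84 with the stimulus (adjusted p = 0.148), and of -0.93 without M0+LPS/IFNg replicate 4.

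Among 11 tested inducers and brakes of IDO1, 9 rose and 2 fell with the stimulus (median 1.13), and 3 rose and 7 fell with co-culture under it (median -0.64). IRF1, a transcription factor induced by interferon-gamma, rose by 3.07 ± 0.08 (adjusted p = 2.82e-15). JAK2 (1.22 ± 0.09), the feedback inhibitor SOCS3 (1.78 ± 0.16) and the phosphatase PTPN6 (1.13 ± 0.06) rose too. With iMSCs under the stimulus IRF1 went from 461 ± 17.6 to 105 ± 13.5 CPM (log2 -2.14 ± 0.07, adjusted p = 6.05e-14), and JAK1 (log2 -0.84 ± 0.07) and PTPN6 (log2 -0.64 ± 0.06) fell. The receptor chain IFNGR1 (1.28 ± 0.10) and IRF8 (1.14 ± 0.11) rose in the same comparison.

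Genes of the response to amino acid shortage, which the kinase GCN2 (EIF2AK4) starts when uncharged transfer RNA builds up, mostly fell with the stimulus. Of 12 tested, 10 fell and 2 rose (median -0.90), and without M0+LPS/IFNg replicate 4 these counts held with a median of -1.21. VLDLR fell by 1.89 ± 0.09 (log2 -1.89), TRIB3 by 1.52 ± 0.13 (log2 -1.52), the central factor ATF4 by 0.75 ± 0.11 (log2 -0.75) and EIF2S1 by 0.53 ± 0.05 (log2 -0.53), and DDIT4 rose by 1.41 ± 0.12. With co-culture under the stimulus 7 fell and 3 rose (median -0.65), or 6 and 4 without M0+LPS/IFNg replicate 4 (median -0.46). DDIT3 (log2 -1.97 ± 0.12), DDIT4 (log2 -1.57 ± 0.12), ATF3 (log2 -2.67 ± 0.26) and SESN2 (log2 -1.02 ± 0.14) fell and EIF2AK4 rose (0.53 ± 0.04). With co-culture at rest 7 rose and 2 fell (median 0.51).

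The patterns of the members over the 16 libraries are a description, since the libraries fall into 4 groups that all genes share. On log2 CPM, Pearson's r was 0.96 between KYNU and AHR, 0.88 between HAAO and QPRT, 0.84 between AFMID and HAAO, 0.77 between IDO1 and KYNU, 0.44 between IDO1 and WARS1 and -0.85 between WARS1 and AFMID. Among 8374 tested genes that averaged 3 or more in log2 CPM, those most like IDO1 were TAP2 (r = 0.995), PIM2 (0.994), GLO1, RUNX2 and P4HB (0.987 each). Most like WARS1 were TNF (r = 0.986), CALCOCO2 (0.983), MMP14 (0.982), YPEL2 and RAB1B (0.978 each). TNF, the inflammatory cytokine, averaged 93.5 CPM in M0 and 1308 in M0+LPS/IFNg, with 208 and 38.3 in resting and stimulated co-culture, the same order of groups as WARS1. Most like KYNU were SVBP (r = 0.993), TFE3 (0.988), EIF4E2 (0.987), H2BC21 (0.987) and RALY (0.985).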

How the data were processed

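RNA of 16 libraries in 4 groups of 4 was measured. Per the labels' protocols RNA was extracted with TRIzol and libraries were made with a VAHTS Universal V6 kit. The authors deposited raw counts, whole numbers for each gene, with gene models on GRCh38.p13 per the file headers. HISAT2, HTSeq and GRCh38 are named, without roles or versions, per the submitters' processing notes. Symbols and coordinates are those of the table, which gives no symbol for 20055 of its genes. The labels gave the groups and replicate numbers.

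Genes that passed filterByExpr of edgeR 4.0.16 (R 4.3.3) were scaled with TMM factors, which averaged 0.984 in M0, 1.08 in M0+iMSC, 0.822 in M0+LPS/IFNg and 1.14 in M0+LPS/IFNg+iMSC. All 16 libraries entered 1 robust quasi-likelihood fit without a block (12 residual degrees of freedom), and p-values were adjusted over all genes tested in each contrast. The SE is the log2 change over the square root of F, and cannot be relied on for groups near 0 counts. Levels were compared between genes per kilobase of exon. On simulated data with 13989 genes the stimulation contrast called 100% of genes changed by 1 and 100% of those changed by 2 (log2). It also called 11 of 13789 unchanged genes. Means and spread of the simulated libraries were taken from the M0 libraries alone. Changes were placed only in genes above a count floor, so the rates of 100% do not cover genes as scarce as HAAO. Whether these rates hold for the measured libraries, among which M0+LPS/IFNg replicate 4 stood apart, was not tested. No pair of replicates agreed within sampling noise. By a chi-square per gene of the count differences, M0+LPS/IFNg replicate 4 gave 115 to 125 with the others of its group. For M0+LPS/IFNg+iMSC replicate 4 the values with its group were 11.8 to 13.1. M0+iMSC gave 5.23 for replicates 1 and 2 and 3.39 for 3 and 4. Pairs across these gave 11.0 to 20.7, so the M0+iMSC libraries were not equally alike. The cause was not tested, and fits were repeated without either pair. The members and gene lists were chosen with earlier results of these data known, so they are no independent evidence. Named were the 8 genes, every tested gene of the lists of other kynurenine and tryptophan enzymes, up to 5 genes of smallest p per other list in the stimulation contrast and in the co-culture contrast under stimulation, and the 5 genes most like IDO1, WARS1 and KYNU (prior count 2). DCN, LUM, ACTA2, PRRX1, FAP, COL1A2, CDH11 and CD68 were named after their values were seen, as were KYAT1, AADAT, ACMSD and IDO2, which were not tested. Some genes that this rule names are not reported here. Alternatives were RLE and upper-quartile factors, library totals, DESeq2 1.42.0, no filter and a stricter filter, a replicate block, only the groups compared, and leaving out libraries. Promoter sequences are RefSeq's. Plots used matplotlib 3.10.9 and python 3.11.15.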

Additional observations from a re-analysis of the deposited data

Results flagged for a closer look

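Of 50 gene and group combinations with at least 40 counts, 4 held a library far from the other 3 of its group, where chance gives about 1 in 20. WARS1 in M0+LPS/IFNg+iMSC replicate 1 stood at 275 CPM, against 221 to 224 in the others. KMO, TDO2 and IL4I1 stood at 53.1, 5291 and 207 CPM in M0+LPS/IFNg replicate 4, the library that also stood apart over all genes. The co-culture effect differed between stimulated and resting macrophages by the interaction test for WARS1 (-3.61), KYNU (0.35), KMO (2.25), AFMID (1.75), HAAO (1.36), AHR (0.50), TDO2 (1.90), KYAT3 (-0.90) and GOT2 (0.76), all on the log2 scale. Without M0+LPS/IFNg replicate 4 the values were 2.85 for KMO, 1.72 for HAAO and 2.82 for TDO2. Without M0+iMSC replicates 3 and 4 the interactions of TDO2 (1.59, adjusted p = 0.106) and KYNU (0.13, adjusted p = 0.130) were not called by edgeR's quasi-likelihood test.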

How the results depend on the processing

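IDO1 and WARS1 kept their direction and call in the comparisons reported under every setting in which they could be fitted, except the IDO1 interaction, which was called with DESeq2 (-3.99). Leaving out each library in turn gave 11.84 to 12.90 (stimulus) and -5.38 to -4.90 (co-culture under it) for IDO1. With library totals these values changed sign: AHR with the stimulus (-0.021), AHR and KYAT3 with co-culture under it (0.13 and 0.029), the QPRT interaction (0.013), KYNU, AHR and TDO2 in stimulated co-culture against M0 (0.10, 0.11 and 0.0061), SLC36A4 with the stimulus (-0.039) and SLC3A2 with co-culture under it (0.29). SLC7A8 with the stimulus ran from -0.93, without M0+LPS/IFNg replicate 4, to 1.85 as libraries were left out in turn. The count of the 8 genes called lower was 2 in the interaction with DESeq2, 0 for the stimulus with only the groups compared, and 0 to 1 without each library in turn. In stimulated co-culture against M0 it was 3 with only the groups compared, and 2 without M0+iMSC replicates 1 and 2 or without 3 and 4. Gene lists moved as follows. With upper-quartile factors 1 transporter and 1 deprivation gene rose with the stimulus. With library totals 0 other tryptophan enzymes, 1 transporter and 1 deprivation gene rose with the stimulus, 1 transporter rose with co-culture at rest, and 5 AHR partners and 15 synthetases rose with co-culture under the stimulus. There, 1 other tryptophan enzyme fell with the stimulus and 1 with co-culture at rest, and 1 other kynurenine gene, 0 tryptophan enzymes and 2 synthetases fell with co-culture under the stimulus. With DESeq2, where TDO2, IL4I1 and SLC7A8 had no adjusted p, 1 kynurenine gene and 0 tryptophan enzymes rose with the stimulus, 0 and 1 fell with co-culture at rest, and 1 kynurenine gene fell under the stimulus. Without a filter 0 tryptophan enzymes and 1 deprivation gene rose with the stimulus, and 1 tryptophan enzyme fell with co-culture at rest. The cause of these shifts was not tested. Same-numbered libraries correlated above 0.1 in 5 of 24 pairs (-0.173 to 0.229). With 4 libraries per group such correlations cannot show whether numbers pair libraries, and the labels do not say. With a replicate block the stimulus was no longer called for HAAO (0.77, adjusted p = 0.0586), TDO2 (1.20, 0.0628) and IL4I1 (1.17, 0.107), and the IL4I1 interaction was called (2.40, 0.0274). With only the groups compared the effect of the stimulus was not called for AFMID (log2 -0.40, adjusted p = 0.0565), HAAO (0.0747), TDO2 (0.0643) and IL4I1 (0.105). IL4I1 fell with co-culture at rest (log2 -1.56), and its libraries did not overlap between M0 and M0+iMSC. This fall lost its call in 12 of the 16 fits that left out a library, with values from -1.65 to -1.49. Without M0+LPS/IFNg replicate 4 it was called (log2 -1.56, adjusted p = 2.54e-13 by edgeR's quasi-likelihood test). The IL4I1 interaction, 1.88 and not called with all libraries, was 3.31 without that library (adjusted p = 1.62e-16 by the same test). IDO1 could not be fitted for co-culture at rest with only the groups compared, as the filter removed it.

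Depth limits IDO1 at rest, where a group held 4 or 8 counts, and HAAO. Values of KMO and QPRT depend on how reads in overlapping genes were counted.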
